A study of Mus musculus with 21 samples.

Results

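The genes described are 9 myelin genes of mature oligodendrocytes, Mbp, Mog, Mag, Mobp, Cnp, Mal, Cldn11, Ermn and Opalin. They were chosen by name as markers of the mature, myelinating oligodendrocyte, not by a rule on their values, but with earlier results of these data known. All 9 are among the 55487 genes listed in the count table and among the 18146 that passed the filter on low counts. Poly-A RNA was sequenced from the hippocampus of wild type male C57BL/6 mice aged 10 weeks, with 1 library per mouse. The MS group (9 mice) went through maternal separation, in which the whole nest was kept from the dam for 4 hr a day between postnatal days 10 and 17, with less nesting material in the home cage. The SR group (12 mice) had standard rearing. The study asked which transcriptional differences persist in the adult hippocampus after MS.

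The animal numbers fall into 7 runs of 3 consecutive numbers, called sets here. Sets A, B and C are MS mice, sets D, E, F and G are SR mice, and a mouse carries the letter of its set and a number. Whole nests were assigned to a condition and litters held 3 males, but the labels name no nest, so whether a set is a litter is not known. If sets are litters, mice of a set are not independent and p-values over mice may be too small. The MS library A2 lay apart in a principal component analysis and was left out, as the study's methods left out 1 library that they do not name. What follows rests on the remaining 8 MS and 12 SR mice, except where all 21 libraries are stated. Total counts lay between 17276810 and 26450808 in these 20 libraries. No pair of libraries of the same condition held identical values, and pairs across conditions were not compared.

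Myelin is the stack of oligodendrocyte membrane that insulates axons. Mature oligodendrocytes make its proteins and lipids in large amounts. Oligodendrocyte precursors mature through a committed, newly formed stage, and the transcription factors Sox10, Olig2 and Myrf act in that lineage. Myelination in the rodent brain begins after birth and goes on into adulthood. Mbp (myelin basic protein) and Mobp act at the cytoplasmic faces of compact myelin. Mog and Mag are immunoglobulin-like membrane proteins, Mog on the outer surface of the sheath and Mag facing the axon. Cnp encodes a phosphodiesterase of non-compact myelin, Mal a raft-associated proteolipid, Cldn11 the claudin of myelin tight junctions, Ermn a protein that binds actin, and Opalin a glycosylated transmembrane protein of oligodendrocytes.

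All 9 are protein-coding genes, with 1 count per gene and library. Positions in GRCm38 are given for 8 of them. On the plus strand lie Mobp (ENSMUSG00000032517) at chr9:120149707-120181484, Cnp (ENSMUSG00000006782) at chr11:100574904-100591729 and Cldn11 (ENSMUSG00000037625) at chr3:31149920-31164324. On the minus strand lie Mog (ENSMUSG00000076439) at chr17:37010743-37023398, Mag (ENSMUSG00000036634) at chr7:30899176-30914873, Mal (ENSMUSG00000027375) at chr2:127633226-127656695, Ermn (ENSMUSG00000026830) at chr2:58045113-58052864 and Opalin (ENSMUSG00000050121) at chr19:41061710-41077113. Mal and Ermn share chromosome 2 and lie far apart.

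The stretches before the transcription starts of 4 members are shown because the members vary together between mice and because Myrf, whose protein binds myelin genes, is among the lineage genes measured. They come from RefSeq (GRCm38.p6), where 8 members matched an entry, Mbp not. The windows searched ran from 250 bases before the start to 50 after it. The motif of MYRF, CTGGCAC or CTGGTAC on either strand, was found for 4 of the 8 matched members and in 8.10% of the 27025 genes with a window (7.10% of 32851 windows). Each stretch is printed 5′ to 3′ on the strand of the gene, up to the start given by RefSeq or GENCODE, whichever comes first, with the motif in capitals.
Mog, chr17:37023399-37023648, minus strand: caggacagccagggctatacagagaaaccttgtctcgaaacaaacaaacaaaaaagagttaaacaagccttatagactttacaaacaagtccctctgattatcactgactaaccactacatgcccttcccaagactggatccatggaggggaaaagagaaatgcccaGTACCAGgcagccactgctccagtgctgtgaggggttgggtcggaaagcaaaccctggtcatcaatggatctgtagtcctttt
Mag, chr7:30914874-30915113, minus strand: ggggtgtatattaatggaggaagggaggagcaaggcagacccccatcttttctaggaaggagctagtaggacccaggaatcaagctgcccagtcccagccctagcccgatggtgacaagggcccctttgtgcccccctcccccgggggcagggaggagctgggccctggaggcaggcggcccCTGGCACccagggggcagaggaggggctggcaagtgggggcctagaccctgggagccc
Cnp, chr11:100574689-100574903, plus strand: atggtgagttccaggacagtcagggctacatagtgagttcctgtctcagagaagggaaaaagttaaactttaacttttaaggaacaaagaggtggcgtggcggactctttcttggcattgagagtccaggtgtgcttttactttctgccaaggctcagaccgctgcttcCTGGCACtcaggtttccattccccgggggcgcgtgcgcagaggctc
Opalin, chr19:41077114-41077363, minus strand: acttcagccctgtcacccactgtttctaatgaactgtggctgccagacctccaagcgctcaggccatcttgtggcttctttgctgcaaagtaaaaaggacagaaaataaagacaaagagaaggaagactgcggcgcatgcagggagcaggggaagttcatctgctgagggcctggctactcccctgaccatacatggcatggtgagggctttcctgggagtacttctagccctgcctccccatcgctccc
Counted from the RefSeq start, the motif began at base -83 in Mog, -68 in Mag and -81 in Cnp. In Opalin the match (GTGCCAG) began at base 37 after the start, beyond the stretch printed. The windows of Mobp, Mal, Cldn11 and Ermn held no match. ACAAAG, a core motif of SOX factors, was searched on both strands and was also found for 4 of the 8, Mag, Mobp, Cnp and Opalin, against 21% of genes. Mobp held 6 copies. No MYRF match overlapped a SOX match in the members' windows. These matches describe the letters of the windows and are not binding sites measured here.

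The members spanned a wide range of levels. Per kb of exon (union of the exons in GENCODE M21), Mbp stood at 296 ± 44.4 CPM per kb (mean ± SD, n = 20; CPM, the conventional unit of counts scaled to the library total, here after TMM normalization), rank 71 of all genes tested. Mobp followed at 137 ± 19.0 CPM per kb. Mal (84.8 ± 12.0), Cnp (81.4 ± 12.0) and Cldn11 (80.0 ± 12.5 CPM per kb) differed from each other by less than their spread, and Mal was above Cnp in 16 of 20 mice and Cnp above Cldn11 in 13. Mag (51.5 ± 8.20), Mog (32.7 ± 5.38), Ermn (16.5 ± 2.51) and Opalin (6.06 ± 1.13 CPM per kb) came next, in this order in 20 of 20 mice. The counts behind these levels were 40020 to 74554 per library for Mbp and 243 to 536 for Opalin. Of genes of peripheral myelin, Pmp2 (0 to 2 counts) was at or near 0 in all libraries, whereas Prx had 34 to 92 counts.

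None of the 9 members differed between MS and SR after adjustment over all genes (edgeR's quasi-likelihood test, Benjamini-Hochberg adjusted p between 0.360 and 0.997). The same test called 2 of all 18146 genes, or 0.0110%. The log2 fold change, MS against SR, was above 0 for 7 members and below 0 for Mobp and Opalin, with a median of 0.036 where the median of all genes was 0.00084. The signs of the fold changes near 0 rest on single mice, whereas Opalin stayed below 0 and Cldn11 and Ermn above 0 with any 1 mouse left out. Without C1, 2 members were above 0 (median -0.013), without B1, 3 members (median -0.021), and without C2, 8 members (median 0.12). With 1 SR mouse left out, the median ran from 0.011 (without D1) to 0.072 (without E2). The ranges of MS and SR overlapped for 9 of 9 members. For 7 of them the whole SR range lay within the MS range, with C2 at the lower end and C1 or B1 at the upper end each time. The members vary together, and the share of all genes with such ranges was not computed. In bulk tissue, fewer oligodendrocytes and less RNA per oligodendrocyte cannot be told apart.

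**Figure D1:**
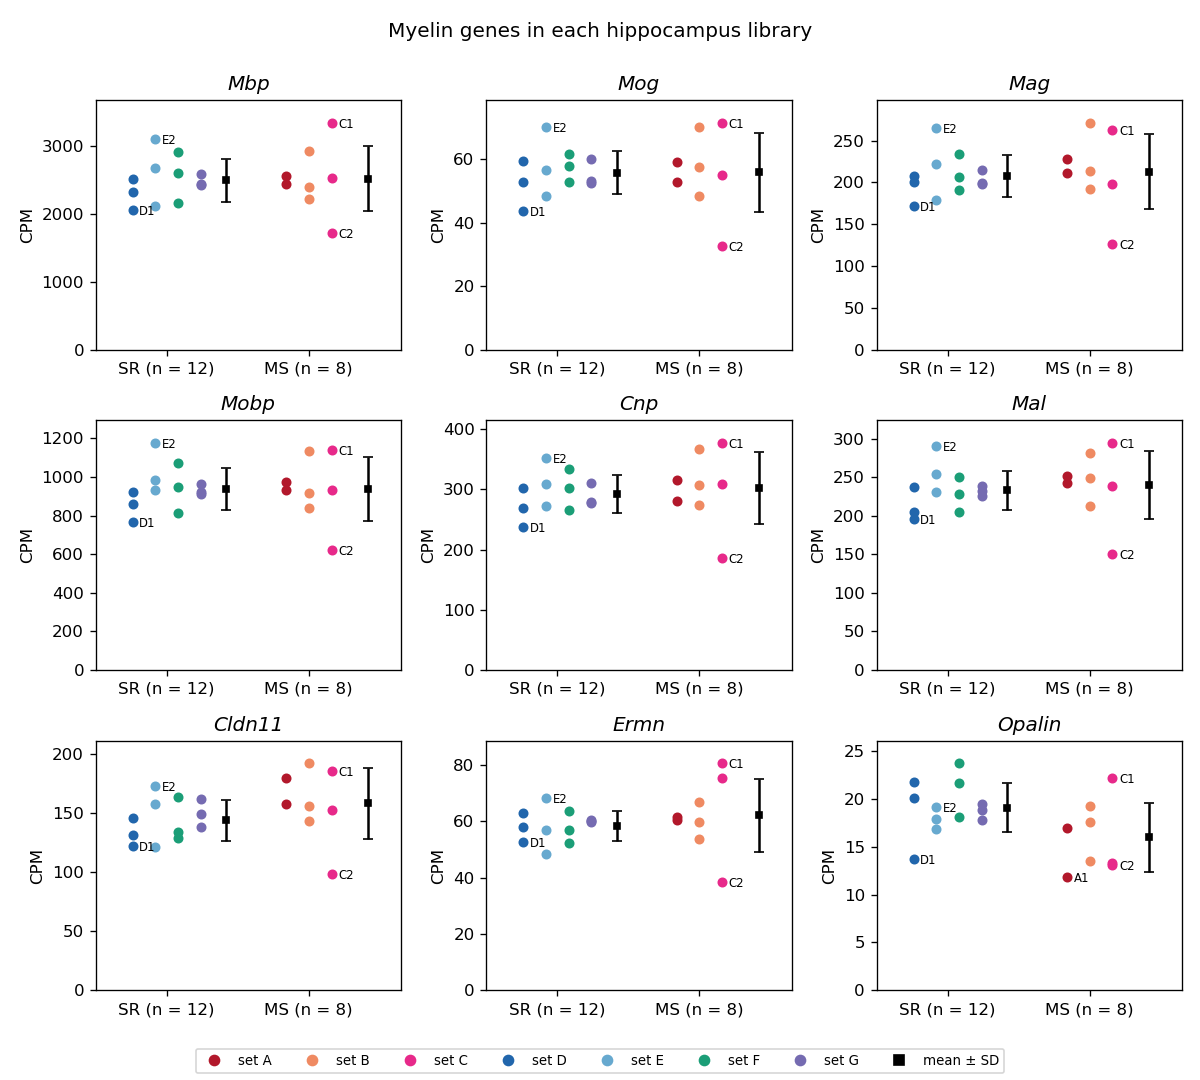
CPM of each member (y axis, starting at 0) in each mouse of SR and MS, coloured by set, with the mean ± SD of each condition as a black square with bars. The lowest point of 8 panels is the MS mouse C2, and for Mbp it lies at 1726 CPM while C1 of the same set lies at 3349.8 CPM.

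Of the genes of compact myelin, Mbp ran from 1726 to 3349.8 CPM in MS (median 2492) and from 2057 to 3107 CPM in SR (median 2485). Its mean was 2522 ± 479 CPM (SD, n = 8) in MS and 2497 ± 314 CPM (n = 12) in SR. Both ends of the 20 mice, C2 and C1, were MS mice of set C, and the medians nearly coincided. The log2 fold change of Mbp was 0.014 with a 95% interval of -0.18 to 0.21 (edgeR adjusted p = 0.974). Mobp, the other cytoplasmic protein, had 620 to 1139.9 CPM in MS (median 930.4) and 766 to 1175 CPM in SR (median 926). Here the highest mouse was E2 of SR, and the log2 fold change was -0.0044 (95% interval -0.19 to 0.18).

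Of the adhesion proteins, Mog ran from 32.5 to 71.5 CPM in MS (median 56.3) and from 43.6 to 70.2 CPM in SR (median 54.9). Mag ran from 127 to 271 CPM in MS (median 212) and from 172 to 265 CPM in SR (median 203). Both were lowest in C2 of all mice, and Mag was highest in B1. Their log2 fold changes were 0.0020 (95% interval -0.23 to 0.23) for Mog and 0.036 (-0.18 to 0.26) for Mag.

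Cnp, the phosphodiesterase, had 186 to 377 CPM in MS (median 308) and 237 to 353 CPM in SR (median 291), with a log2 fold change of 0.045 (95% interval -0.16 to 0.25). Mal, the proteolipid, had 149.98 to 294 CPM in MS (median 246) and 196 to 290.1 CPM in SR (median 232), with a log2 fold change of 0.043 (-0.15 to 0.24). The SR values of both genes lay within the span of C1 and C2. Ermn, the actin-binding protein, ran from 38.5 to 80.6 CPM in MS (median 61.0) and from 48.3 to 68.2 CPM in SR (median 58.8). Its log2 fold change was 0.090 (95% interval -0.11 to 0.29, edgeR adjusted p = 0.768).

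Cldn11, the claudin, had the highest log2 fold change of the members. It ran from 98.4 to 192 CPM in MS (median 157) and from 122 to 173 CPM in SR (median 142). The MS mice B1, C1 and A3 were above all SR mice and C2 below all of them. The log2 fold change was 0.14 (95% interval -0.067 to 0.34, edgeR unadjusted p = 0.178, adjusted p = 0.623).

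Opalin had the lowest log2 fold change of the members. In MS it stood at 11.9 CPM in A1, 13.1 in C2, 13.3 in C3, 13.5 in B2, 16.9 in A3, 17.6 in B3, 19.3 in B1 and 22.2 in C1. In SR it ran from 13.8 (D1) to 23.7 CPM (F3), with a median of 19.0, and 6 of the 8 MS mice were below that median. The means were 16.0 ± 3.61 CPM (SD, n = 8) in MS and 19.1 ± 2.57 CPM (n = 12) in SR, so the groups overlapped. The log2 fold change was -0.26 (standard error 0.11, 95% interval -0.48 to -0.034), with an unadjusted p of 0.0257 and an adjusted p of 0.360 in edgeR. It was the 1 member under an unadjusted p of 0.05, on the lower side, where 4.92% of all genes lay. No member was there on the higher side, where 6.62% of all genes lay. Leaving out A1 (p = 0.0602), B2 (p = 0.0530), C2 (p = 0.0589) or C3 (p = 0.0547) took Opalin over 0.05 by the same unadjusted edgeR test.

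**Figure D2:**
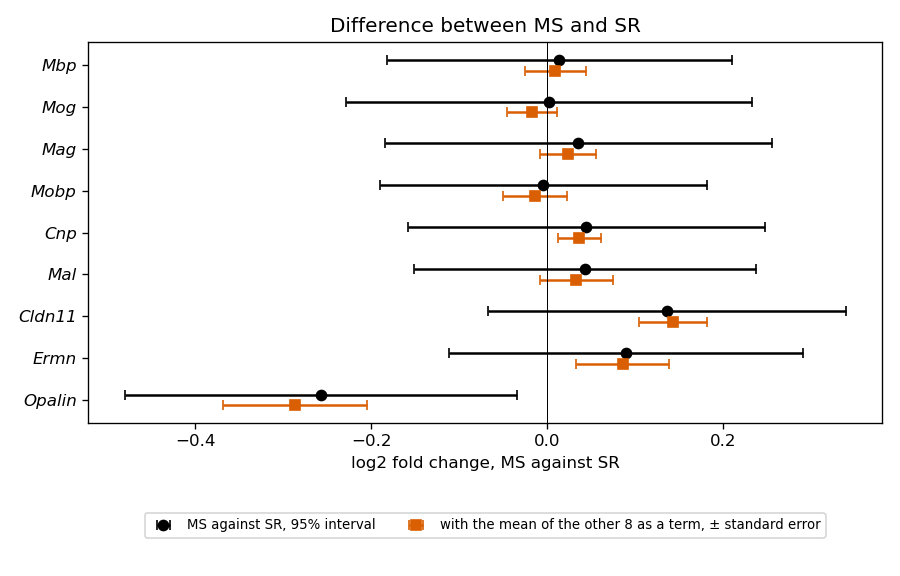
Log2 fold change of each member, MS against SR (x axis), with its 95% interval as black points and bars, and the same with the mean level of the other 8 members as a term, with its standard error, as orange squares and bars. Every black interval but that of Opalin (-0.48 to -0.034) covers 0, and no member passed the adjusted threshold.

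Since the members move together from mouse to mouse, each was also fitted with the mean log2 CPM of the other 8 as a term, a fit chosen after seeing the data. The log2 fold change of Opalin was then -0.29 (standard error 0.082, edgeR unadjusted p = 0.0020, adjusted p = 0.165). That of Cldn11 was 0.14 (standard error 0.039, unadjusted p = 0.00117, adjusted p = 0.109). The 2 genes thus lay on opposite sides, and neither passed the threshold. For the other 7 members the unadjusted p was between 0.116 and 0.794. Log2 CPM of Opalin minus the mean of the other members ran from -4.40 (A1) to -3.62 (C2) in MS and from -4.002 (E2) to -3.53 (F1) in SR, so these ranges overlapped as well.

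For the 8 members other than Opalin, the log2 fold change between conditions was at most 0.14 in size. It was below the SD of log2 CPM between mice within condition, 0.21 to 0.26. For Opalin the log2 fold change of -0.26 was about as large as that SD, 0.25. The highest of the 20 mice had 1.90 (Mobp) to 2.20 times (Mog) the CPM of the lowest. As a log2 deviation from each gene's mean, averaged over the 9 members, the mice ran from -0.61 in C2 to 0.36 in C1. C2 was the lowest of all 20 mice for 8 of 9 members, Opalin being lowest in A1. C1 was the highest for 5 of 9. Among SR mice, E2 was highest for 8 members and D1 lowest for 7. All 9 members were above their means in C1, B1, E2, F3 and G1 and all 9 below in C2, D1 and B2.

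**Figure D3:**
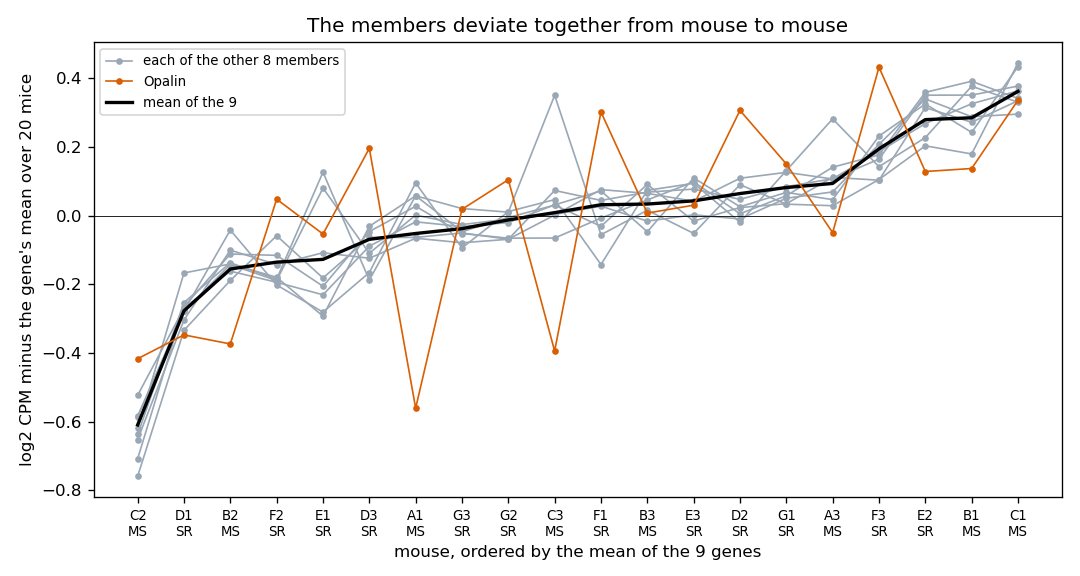
Log2 CPM of each member minus its mean over the 20 mice (y axis), with the mice of both conditions ordered by the mean over the members (black line). The mean runs from -0.61 in C2 to 0.36 in C1. The grey lines of 8 members mostly follow it, though Ermn lies at 0.35 in C3, where the mean is 0.0086. Opalin (orange) departs from the mean most in A1, where it lies at -0.56 and the mean at -0.052.

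Both ends of the order, C1 and C2, came from 1 set. Summed over the members, C1 had 5782 CPM and C2 2991 CPM. Of the sum of squares of log2 CPM, 65.5 to 96.7% lay between mice of the same set, where the median of all genes was 63.6%. Between sets of a condition lay 1.20% (Ermn) to 19.5% (Mal), where the median of all genes was 27.7%. Between conditions lay at most 6.61%, apart from Opalin with 23.9%, where the median of all genes was 4.14%. No member differed between sets of the same condition (edgeR F test, adjusted p between 0.906 and 0.997), and this test called 6 of all genes, or 0.0331%.

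The SD was larger in MS, relative to the mean, for 9 of 9 members, and for 7 of 9 without C2, when Mal (10.9% in both) and Cldn11 (11.2% against 12.0%) turned. It was 17.7 to 22.6% of the mean in MS and 9.38 to 13.5% in SR. Without C2 it was 10.9 to 22.5% in MS (n = 7), with Opalin at the upper end. Without C2, Mobp was nearly equal in both conditions (11.6% in MS, 11.5% in SR). The difference in spread was not tested. The members vary together and are not separate cases, and the share of all genes with the larger SD in MS was not computed. The SD of the members' log2 CPM within condition, 0.21 to 0.26, lay between the 59.0th and the 66.4th percentile of all genes, whatever their level. By level, the percentile was 53.3 for Opalin, 77.2 for Mog and 78.7 for Ermn. For the rest it was between 92.3 (Cldn11) and 99.9 (Mbp). The SD was not compared with that of genes of similar level, so how variable the members are for their level is not shown.

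The members' levels correlated over mice. With log2 CPM centred on the mean of each condition, Pearson's r lay between 0.52 (Ermn and Opalin) and 0.99 (Mog and Cnp) over the 36 pairs, with a median of 0.90 (n = 20). Spearman's rho lay between 0.50 and 0.95. Adjusted over the 36 pairs, the permutation p was at most 0.0173 for r and at most 0.0247 for rho (100000 draws, two-sided, smallest p possible 1e-05). The 28 pairs without Opalin had r between 0.81 and 0.99, and the 8 pairs with Opalin between 0.52 and 0.72. Without the 2 mice farthest from the median of the first gene of a pair, r lay between 0.33 (Ermn and Opalin) and 0.97 (Mog and Cnp), with a median of 0.79. The r was lower without those mice for 32 pairs and higher for 4, all of them pairs with Opalin.

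**Figure D4:**
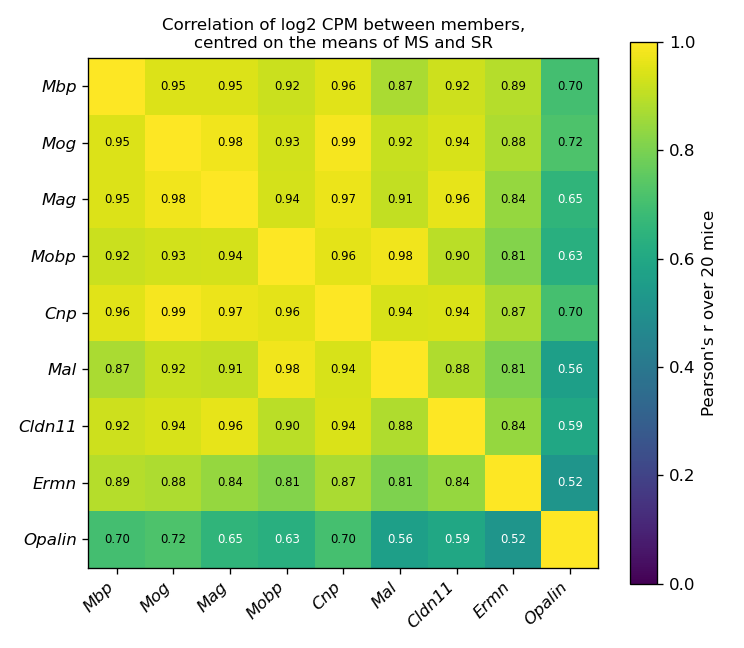
Pearson's r between the members (rows and columns) over the 20 mice, from log2 CPM centred on the mean of each condition, on a colour scale from 0 to 1. The row of Opalin is the lowest, between 0.52 and 0.72, and the other pairs lie between 0.81 and 0.99.

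Each member was also set against the mean of the other 8. As a description, r was 0.99 for Cnp and Mog, 0.97 for Mag, 0.96 for Mbp, 0.95 for Mobp, 0.94 for Cldn11, 0.92 for Mal, 0.86 for Ermn and 0.66 for Opalin. When the member was ranked with the 18121 genes that are no members, it came 1st to 7th for 7 of the genes named, 30th for Ermn and 189th for Opalin. Among the 10 genes outside the list most like the mean of all 9 were Tspan2 (r = 0.97), Prr18 (0.95), Bcas1 (0.94), Gatm (0.94), Plekhb1 (0.93), Tmem88b (0.91), Sept4 (0.91), Hapln2 (0.90) and S1pr5 (0.90), over 20 mice. The median r of all non-members was -0.0042. These points share libraries and total counts.

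The wider myelin programme was taken as 66 further genes in 6 lists, all tested. None was called between MS and SR. The log2 fold change was above 0 for 31 and below for 35 (median -0.0030), with 1 higher and 4 lower at an unadjusted p under 0.05, where 6.62% (higher) and 4.92% (lower) of all genes lay, so the lower count is near that of all genes. Those 5, named after their values were seen, were the chaperone gene Cryab on the higher side (log2 fold change 0.20, edgeR p = 0.0242) and Omg (-0.13, p = 0.00345), the tubulin gene Tubb4a (-0.11, p = 0.00333), the cholesterol enzyme gene Lss (-0.16, p = 0.00871) and Itpr2 (-0.11, p = 0.0185). The smallest adjusted p among the 66 was 0.208. For these 5, r with the members' mean was 0.89 for Cryab, 0.72 for Tubb4a, 0.31 for Omg, -0.15 for Lss and -0.42 for Itpr2. The 4 markers of neurons in general were all below 0 as well (median log2 fold change -0.095, smallest edgeR adjusted p 0.182). Whether cells other than oligodendrocytes took part in these values was not tested.

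Among 16 other proteins of myelin and the paranode, log2 fold changes ran from -0.24 (Ninj2) to 0.20 (the tetraspanin Cd9), with a median of -0.0026. Among 7 enzymes of myelin lipids they ran from -0.089 (Aspa) to 0.32 (the fatty acid elongase Elovl7), with a median of 0.053. Among 11 enzymes of cholesterol synthesis, a pathway on which myelin draws, 9 were below 0 and 2 above, from -0.24 (Fdps) to 0.020 (Mvd), with a median of -0.042. Among 10 transcription factors of the lineage they ran from -0.14 (Zfp488) to 0.45 (Tcf7l2, also expressed in thalamic neurons, standard error 0.25), with a median of -0.0097. Myrf itself had 82.1 CPM in MS and 84.7 CPM in SR (log2 fold change -0.046). Among 14 other genes of mature oligodendrocytes, 10 were above 0 and 4 below (median 0.085), from Tubb4a to Enpp2 at 0.78 (standard error 0.60). Enpp2 is also abundant in choroid plexus, whose 5 markers had a median log2 fold change of 0.92.

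The lists differed in how closely they followed the members. As a description, the median r with the members' mean was 0.80 for the lipid enzymes, 0.79 for the other genes of mature oligodendrocytes, 0.76 for the other myelin proteins, 0.48 for the transcription factors and 0.13 for cholesterol synthesis. Among the transcription factors, Sox10 (0.80), Myrf (0.79), Nkx6-2 (0.78) and Olig1 (0.78) were highest and Zfp488 (0.28) lowest. Enpp2 (0.38) was lowest of the other mature genes.

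Markers of other cells were set beside the members, since the dissected tissue may vary. None of the 13 marker lists held a gene called between MS and SR. The choroid plexus list summed to 51.6 to 4140 CPM in MS (median 3271) and 27.6 to 4465 CPM in SR (median 825). The striatal list summed to 923 CPM in B1 and 594 in E2, 2 mice high in the members, and to 172 to 265 CPM in the other mice. Of these others, C1, the highest in the members, had 183 CPM, and F3, also high, had 188 CPM. C2, lowest in the members, had the lowest thalamus sum of all mice (85.1 CPM). D1, next lowest in the members, had 141 CPM of that list. Among MS mice, C2 had the lowest choroid plexus sum (51.6 CPM). It also had their highest CA pyramidal (779 CPM) and dentate granule cell sums (463 CPM). SR mice reached 789 and 509 CPM of these 2 lists. Over 135 relations of a member with a marker list, the total count or the mitochondrial share of counts, none passed adjustment by either Pearson's or Spearman's coefficient (permutation tests of 100000 draws, smallest adjusted p 0.547 for Pearson's r and 0.303 for Spearman's rho, the latter for Mag, Mobp and Mal against the list of CA pyramidal cells). The list of CA pyramidal cells had r between -0.55 and 0.039, and between -0.68 and -0.41 without the 2 mice farthest from the median. For the striatal list r lay between 0.14 and 0.57, and between -0.25 and 0.43 without the 2 farthest. Their part in the members' variation was not tested beyond this. Without A1, B1 and E2, which stand apart in striatal or neocortical markers, no member was called and Opalin had an unadjusted edgeR p of 0.0465.

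**Figure D5:**
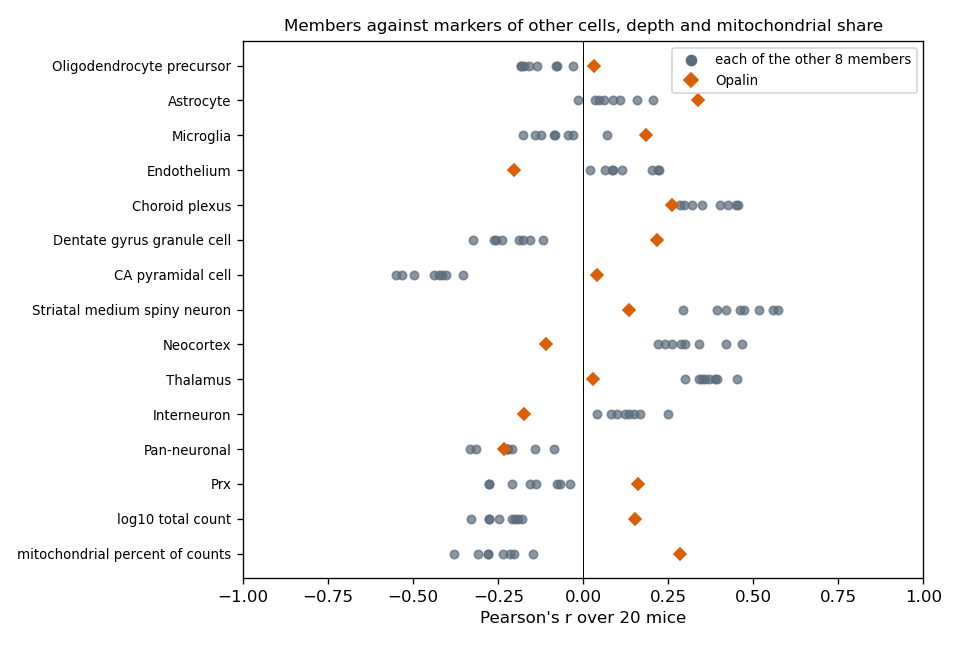
Pearson's r over the 20 mice (x axis) between each member (grey circles, Opalin as orange diamonds) and the mean log2 CPM of each marker list, the total count and the mitochondrial share of counts (rows). The lists of CA pyramidal cells (-0.55 to 0.039) and of the striatum (0.14 to 0.57) lie farthest from 0, and none of the 135 relations passed adjustment.

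The library left out, A2, had more of every member than any of the other 20, normalized together with them. It had 4022 CPM of Mbp, where the others had 1726 to 3349 CPM, and 24.5 CPM of Opalin, where they had 11.9 to 23.7 CPM. Relative to the median of the others its members stood at 1.36 (Ermn and Opalin) to 1.67 (Mag) times. The same library had 2491 CPM of the striatal list (others 172 to 923) and 69.1 CPM of the dentate granule cell list (others 247 to 509), and 13.0 CPM of choroid plexus markers. A2 was also above all others in the lists of microglia (248 CPM, others at most 221), endothelium (209, at most 176), oligodendrocyte precursors (146, at most 142) and interneurons (677, at most 666). It was below all others in the lists of CA pyramidal cells, astrocytes and thalamus. With all 21 libraries no member was called, Opalin had a log2 fold change of -0.17 (unadjusted edgeR p = 0.161), and Mobp went from below 0 to 0.090. In that case 12 of the 135 relations were called by Pearson's r and 0 of these 12 by Spearman's rho. They were 6 with the striatal list, 4 with that of CA pyramidal cells and 2 with the neocortical list.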

How the data were processed

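Poly-A RNA libraries were prepared with a directional kit, and per the submitters' processing notes the authors aligned the reads with STAR 2.7.3a to GRCm38 and counted them with featureCounts. The strand setting of the counting is not given in the sources used here. The authors deposited 1 table of raw counts per Ensembl gene and library, not normalized, in which 0 columns belonged to no sample. Of the listed genes, 55227 had a symbol in GENCODE M21, the source of positions.

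Counts were filtered by filterByExpr (minimum count 10), normalized by TMM and tested in edgeR 4.0.16 (R 4.3.3) by the robust quasi-likelihood test, and p-values were adjusted by Benjamini and Hochberg's method over all genes tested (threshold 0.05). The library farthest from the median in a PCA of the 500 most variable genes was left out. Differences between sets were tested by an F test over contrasts within condition. Log2 CPM had a prior count of 2, and intervals are 95% intervals. Counts carry counting error, largest for genes of few counts. The common biological coefficient of variation was 13.4%. Computations were tested on simulated data.

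Named genes are the 9 members, the genes of largest positive and negative fold change in each list, and the 10 genes outside the list most like the members. Some genes that this rule names are not reported here. The members and lists were chosen with earlier results of these data known. Near-identical or overlapping genes could share reads: Mobp shared 79 exon bases with Gm38642, Ermn 237 with Galnt5 on the other strand, and Cnp 154 with Dnajc7 on the other strand, which had 2551 to 4783 counts and a log2 fold change of -0.0023.

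Alternatives were all 21 libraries, DESeq2 1.42.0, its size factors, no filter or at least 10 counts in every library, the range of animal numbers (under 56000 or not) as a term and separately, limma-voom (limma 3.58.1) in which sets were random blocks, sums of counts over each set, each library and set left out, and levels not centred. Added after seeing the data were the other members as a term, an interaction with the range, leaving out A1, B1 and E2, and correlations without C2. Correlations were computed with NumPy 2.4.6.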

Additional observations from a re-analysis of the deposited data

Results flagged for a closer look

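Mouse B1 stood apart from the other MS mice in the summed CPM of striatal markers. It had 923 CPM, where the other MS mice had 179 to 229 CPM, and the gap to the nearest mouse was 0.933 of the range of the group. B1 was also the mouse with the second highest mean deviation of the members (0.28 on the log2 scale). Mouse A1 stood apart among the MS mice in neocortex markers, with 376 CPM and a gap ratio of 0.765, and was the mouse with the lowest Opalin (11.9 CPM). Both ratios were above the critical value of 0.526 for 8 values. The ratio was computed for 21 values, and chance alone gives about 1 such flag in 20 groups. Whether tissue next to the hippocampus took part in the levels of the members in these mice was not tested.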

How the results depend on the processing

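No member was called between MS and SR in any of 39 alternatives (smallest edgeR or DESeq2 adjusted p 0.109, for Cldn11 with the other members as a term), nor between sets in any of 25. Opalin stayed below 0 in 39 of 39, between -0.34 and -0.17, with adjusted p of 0.165 or more. Its unadjusted p was 0.161 with all 21 libraries, 0.0784 without set A, 0.0831 without set F, 0.0179 with DESeq2 and 0.0047 with counts summed within sets. Without C2, 2 members, Opalin not among them, were under an unadjusted edgeR p of 0.05, as were 2866 of 18266 genes. With Opalin among them, 2 members were under it in animal numbers under 56000 (3059 of 18395 genes), without set C (3361 of 18561) and with summed counts (1753 of 21752). Ermn stayed above 0 in 39 of 39, between 0.026 (without C1) and 0.17 (without C2). The members' median lay between -0.036 and 0.12. The fold changes near 0 changed sign without nearing the threshold. Mobp, at -0.0044, was 0.090 with all 21 libraries, 0.0014 with a term for animal numbers under 56000 or not and 0.028 in animal numbers under 56000. Mog, at 0.0020, was -0.0074 with no filter, -0.054 in numbers of 56000 and above, -0.027 with limma-voom and the set as a random block, -0.0020 with summed counts, -0.012 without A1, B1 and E2 and -0.017 with the other members as a term. In numbers of 56000 and above (3 against 3 mice), Mag was -0.058, Mal -0.026 and Cldn11 -0.036. The difference between the ranges was not called for any member (edgeR adjusted p 0.761 to 0.990). With 1 library or set left out, the log2 fold change of Mbp ran from -0.056 to 0.077, of Mog from -0.058 to 0.086, of Mag from -0.023 to 0.12, of Mobp from -0.053 to 0.063, of Cnp from -0.0078 to 0.12, of Mal from -0.0049 to 0.12 and of Cldn11 from 0.091 (without B1) to 0.21 (without C2). The correlated pairs numbered 34 of 36 with levels not centred and 36 otherwise. Without C2 the median r over the pairs was 0.82. The relations with marker lists rose from 0 to 12 with all 21 libraries, where A2 enters. Over all genes, the count called between MS and SR ran from 0 to 340 around the 2 given, being 134 with DESeq2, 230 in numbers under 56000, 109 without C2 or without C3 and 340 without set C. Between sets it was 6, 166 with DESeq2's likelihood ratio test and 1992 with no filter. The cause of these shifts was not tested. No paired analysis was possible because whole nests were assigned to a condition and the labels pair no MS mouse with an SR mouse. The number of mice, with intervals of about 0.2 on the log2 scale to either side, limits what could be detected, and Opalin, with 243 to 536 counts, has the largest counting error of the members.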

Other observations

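As a description over 20 mice, genes of committed and newly formed oligodendrocytes followed the members less closely in the median than other genes of mature oligodendrocytes (median r 0.79). This did not hold for each gene, as Bcas1 and Enpp6 lay above that median. In bulk tissue the counts of a gene come from every cell that expresses it. How far these genes stand for the newly formed stage in this tissue was not tested. Among 8 genes of committed and newly formed oligodendrocytes, r with the members' mean was 0.94 for Bcas1 and 0.87 for Enpp6, 0.17 for Gpr17, a receptor of the newly formed stage, and -0.42 for Itpr2, with a median of 0.12. Between MS and SR their log2 fold changes ran from -0.11 (Itpr2) to 0.046 (Gpr17), 2 above 0 and 6 below, and none was called by edgeR. The 5 markers of oligodendrocyte precursors were all below 0, with a median log2 fold change of -0.051, a smallest adjusted p of 0.475 (edgeR) and 115.5 to 137 CPM in sum in MS against 117 to 142 CPM in SR.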
